A study of Mus musculus with 6 samples.

Results

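The AP-1 transcription factors described here are 10 genes of the Fos, Jun, Batf and Atf3 group, taken by gene name from the 29199 genes of the deposited table. All 10 were found once, and 9 passed the filter on low counts and were tested. Regulatory T cells (Treg) had been recovered from the spleen of C57BL/6 J or congenic CD45.1+ B6 recipients (which of them for each library was not given) 3 weeks after lethal irradiation and a graft of B6 and semi-allogeneic B6D2F1 bone marrow. The Treg were wild-type in both groups, came from B6 Foxp3-Thy1.1 mice, and had been expanded ex vivo with IL-2, TGFβ and anti-CD3/CD28 beads before injection. The groups differed in the naive conventional CD4 T cells (Tconv) injected with them, which were WT in 3 libraries and knocked out (KO) for the heterochromatin protein HP1α in the other 3. The KO came from a floxed Hp1a allele crossed with CMV-cre, so that it was not limited to T cells of the Tconv donors. That line was kept on a mixed 129/Sv and C57BL/6 background, with Hp1a+/+ littermates as controls, whereas the Treg donors were B6. The groups are called WT-Tconv Treg and KO-Tconv Treg below. The study worked with young adult mice, and with males for sequencing. The age of the animals behind each library, and whether a library came from one recipient or from pooled recipients, were not given in the sources used here, and p-values therefore measure the spread between these libraries.

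AP-1 is a set of dimers of basic leucine zipper (bZIP) proteins that bind short palindromic DNA sites and are induced within minutes of T cell receptor signalling. Fos proteins need a Jun partner to bind DNA, whereas Jun proteins can also pair with each other. BATF lacks a transactivation domain of its own, pairs with Jun proteins, and binds composite sites with IRF4. In Treg, JunB and BATF are known for their part in the effector program, and AP-1 is the classical partner of NFAT that Foxp3 competes with.

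Fosl2, which encodes the Fos protein Fra-2, was the tested member with the largest difference between the groups. It was at 176 CPM ± 13.4 (SD, n = 3) in WT-Tconv Treg and at 93.8 CPM ± 25.3 (SD, n = 3) in KO-Tconv Treg, where CPM is counts per 1e6 counts of the library after TMM scaling. Fos was 1.23-fold higher in KO-Tconv Treg, and the groups overlapped for each of the other 7 tested members. In these bulk libraries, fewer cells that express a gene and less of its RNA per cell cannot be told apart. No member had a Benjamini-Hochberg adjusted p-value (given below as FDR) under 0.05 with the quasi-likelihood test of edgeR (0 of 9), nor with limma-voom, and 1 of them, Fosl2, did with DESeq2. Among all genes tested, 0% were called by edgeR and 4.35% of those given an adjusted p-value by DESeq2 (3.03% lower, as Fosl2). Differences are given as log2 fold changes (log2FC) of KO-Tconv over WT-Tconv Treg.

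To show the sequence from which the members with the clearest difference are transcribed, the 250 bases before the start of the canonical transcript are given for Fosl2 and for Fos, together with those of Jun, which carries the best known AP-1 autoregulatory site. The sequences are from GRCm39 in the direction of transcription, 5′ to 3′, at chr5:32292457-32292706 (plus strand), chr12:85520408-85520657 (plus strand) and chr4:94940460-94940709 (minus strand). Capitals mark the letters TGACG, TGACATCA and TATAAA, the latter searched on the transcribed direction alone and the others on both strands.
Fosl2: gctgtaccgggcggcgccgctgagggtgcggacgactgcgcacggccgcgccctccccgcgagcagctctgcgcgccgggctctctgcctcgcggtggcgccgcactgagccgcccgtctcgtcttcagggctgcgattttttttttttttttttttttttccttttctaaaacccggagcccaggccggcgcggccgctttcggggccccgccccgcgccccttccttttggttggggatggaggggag
Fos: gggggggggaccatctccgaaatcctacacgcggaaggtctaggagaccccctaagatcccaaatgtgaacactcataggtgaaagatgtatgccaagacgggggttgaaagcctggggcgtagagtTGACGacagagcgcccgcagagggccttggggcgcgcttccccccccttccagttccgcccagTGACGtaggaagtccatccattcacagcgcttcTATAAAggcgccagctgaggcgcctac
Jun: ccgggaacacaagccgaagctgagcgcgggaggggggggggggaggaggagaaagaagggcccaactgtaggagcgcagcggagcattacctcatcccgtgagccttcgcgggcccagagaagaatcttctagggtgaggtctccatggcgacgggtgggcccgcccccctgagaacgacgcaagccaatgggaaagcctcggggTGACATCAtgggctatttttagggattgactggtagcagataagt

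The letters TGANTCA, the core AP-1 site, were in this window of 0 of the 10 members and of 5.12% of the 16935 promoters of protein-coding genes in the table. TGACATCA was found in Jun at -45 to -38 from the start, and in 1.75% of all promoters. The full cyclic AMP response element TGACGTCA was found in Jund at -214 to -207, and in 1.81% of all promoters. Its part TGACG, which overlaps it, was in 5 members (Fos, Fosb, Junb, Jund and Batf) and in 20.5% of all promoters, and in Fos it lay at -123 to -119 and at -60 to -56. TATAAA was in Fos, at -27 to -22, and in Junb, and in 5.44% of all promoters. The serum response factor site known as the CArG box was in this window of 0 members and of 1.29% of all promoters. Fosl2 thus held none of these letters in the 250 bases shown, which says nothing of sites elsewhere.

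The libraries held 87421755 to 119078882 counts. The Treg markers Foxp3, Il2ra, Ctla4, Ikzf2, Tnfrsf18, Cd4 and Cd3e were present in all 6 of them, with a sum of 4430 to 5100 CPM with WT Tconv and 4170 to 4530 CPM with HP1α KO Tconv. WT-Tconv Treg replicate 3 stood apart in RNA of other cells, with 5596 CPM of red cell markers against 373 to 681 CPM in the other 5 libraries, and 1879 CPM of neutrophil markers against 43.2 to 228 CPM. Macrophage markers were at 183 CPM there and at 13.4 to 48.2 CPM elsewhere. KO-Tconv Treg replicate 2 stood apart in its share of mitochondrial RNA, 0.972% against 2.52 to 2.88%. Single Treg markers were also uneven there. Of the 6 libraries it was the lowest in Foxp3 (154 CPM), Il2ra (121 CPM), Cd3e (147 CPM) and Cd4 (688 CPM). It was the highest in Tnfrsf18 (578 CPM), whereas Ctla4 and Ikzf2 were lowest in KO-Tconv Treg replicate 3. For many of the differences that moved without WT-Tconv Treg replicate 3 or KO-Tconv Treg replicate 2, the value without that library is also given.

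**Figure D1:**
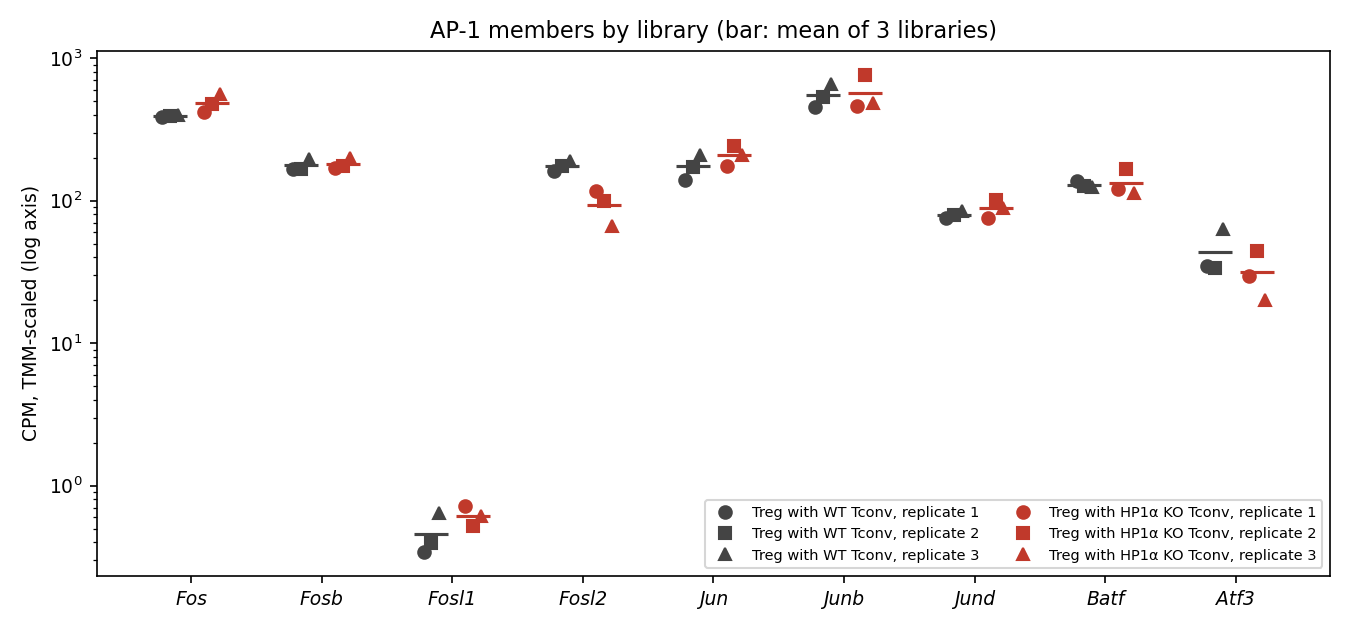
Level of each tested AP-1 member in each library, as TMM-scaled CPM on a log axis, with grey symbols for WT-Tconv Treg, red symbols for KO-Tconv Treg, symbol shape for the replicate and a bar for the mean of 3 libraries. Fosl2 lay at 162 to 189 CPM with WT Tconv and at 66.2 to 116 CPM with HP1α KO Tconv, and Fos at 385 to 402 CPM and 418 to 560 CPM.

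The levels of the members were first ordered per kilobase of their canonical transcript. In WT-Tconv Treg, Junb was at 304 CPM per kb ± 58.4 (SD, n = 3), Fos at 186 ± 4.09, Batf at 133 ± 6.46, Jun at 54.5 ± 10.9, Jund at 47.8 ± 2.81, Fosb at 46.6 ± 4.24, Fosl2 at 25.2 ± 1.92 and Atf3 at 22.1 ± 8.46, all in CPM per kb. Fosl1, which encodes Fra-1, was at 0.246 CPM per kb ± 0.0854, and Batf3, a factor of dendritic cell development, at 0.0475 ± 0.0416. The ranges of neighbours in this order overlapped for Jun and Jund, for Jund and Fosb, and for Fosl2 and Atf3, so that these pairs did not differ beyond their spread. In KO-Tconv Treg the order was the same down to Fosb, and the range of Junb (315 CPM per kb ± 94.3) then also overlapped with that of Fos (229 ± 33.9). Within each library of that group Junb was nevertheless above Fos, at 254 and 198, 423 and 225, and 267 and 265 CPM per kb in replicates 1, 2 and 3. Fosl2 (13.4 CPM per kb ± 3.63) came after Atf3 (15.8 ± 6.16) in that group, and their ranges overlapped.

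As a share of the summed counts per kilobase of the 10 members, Junb, Fos and Batf together held 76.1% ± 0.876 (SD, n = 3) with WT Tconv and 77.5% ± 1.18 (SD, n = 3) with HP1α KO Tconv. Junb alone held 36.9% ± 3.32 and 35.4% ± 4.74. The share of Fosl2 was 3.12, 3.15 and 2.97% in the libraries with WT Tconv and 2.21, 1.37 and 1.13% in those with HP1α KO Tconv. The groups did not overlap for this share, and the same holds for Jun, whose share was 6.60% ± 0.67 and 7.49% ± 0.311, with 7.19% as its highest value with WT Tconv and 7.27% as its lowest with HP1α KO Tconv. No test was made on these shares, which depend on one another and, between genes, on the transcript length used.

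**Figure D2:**
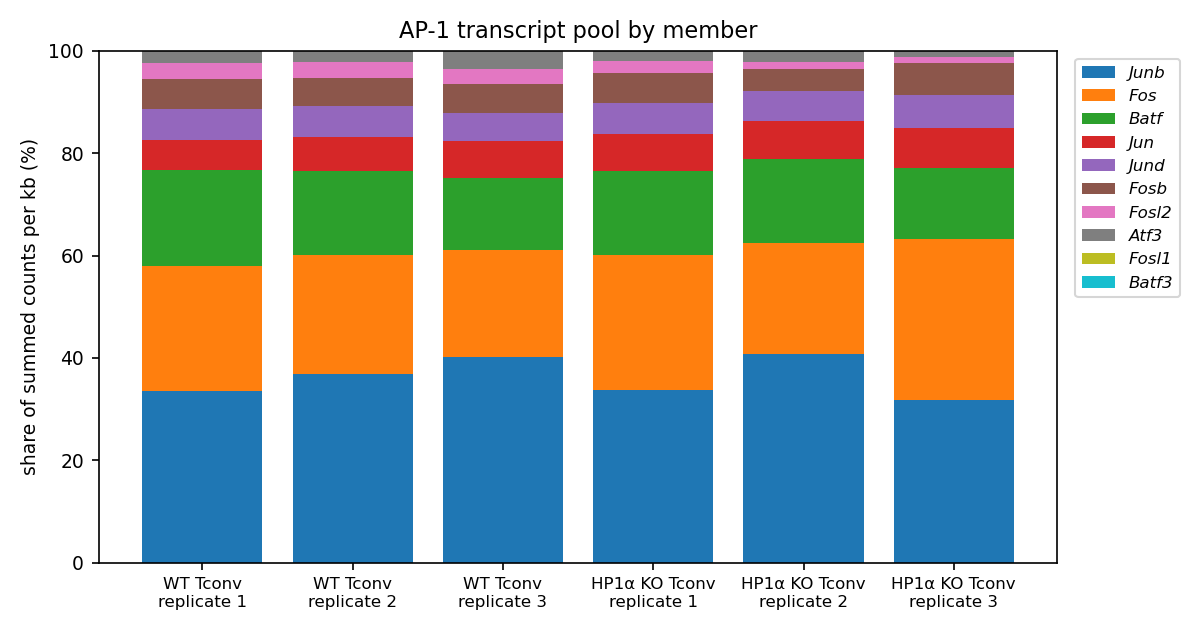
Share of each member in the summed counts per kilobase of the 10 AP-1 genes (percent), with 1 bar per library. Junb, Fos and Batf fill 76.1 and 77.5% of the bars on average, and the band of Fosl2 is narrower in the 3 libraries with HP1α KO Tconv (1.13 to 2.21%) than in the 3 with WT Tconv (2.97 to 3.15%).

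Among the Fos proteins, Fosl2 (ENSMUSG00000029135, GRCm39 chromosome 5, 32292707 to 32315186, plus strand, 4 exons in the canonical transcript) was at 162, 176 and 189 CPM in replicates 1, 2 and 3 of WT-Tconv Treg. In replicates 1, 2 and 3 of KO-Tconv Treg it was at 116, 99.4 and 66.2 CPM. Each library with HP1α KO Tconv was below each library with WT Tconv, and replicate 3 of the former was the lowest. The log2FC of Fosl2 was -0.91 with a standard error of 0.206 and a 95% interval of -1.41 to -0.40, a level 1.87-fold higher with WT Tconv. In edgeR, the unadjusted p-value was 0.00467, the 396th smallest of 18321 genes tested, and the adjusted p-value was 0.209. In DESeq2, Fosl2 had an adjusted p-value of 4.75e-05, the 12th smallest p-value and a log2FC of -0.909. It did not reach the absolute log2FC of 1 that the study required of a differentially expressed gene.

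The difference of Fosl2 did not rest on a single library. It ranged from -0.71 without KO-Tconv Treg replicate 3 to -1.07 without replicate 1 of that group, with edgeR FDRs of 0.261 to 0.437. It was -0.85 without WT-Tconv Treg replicate 3 and -0.95 without KO-Tconv Treg replicate 2, the libraries that stood apart. In DESeq2, FDRs of Fosl2 were 2.19e-06 to 0.0245 when each library was left out in turn. A lncRNA that was not in the table, Gm72529, shares 4.09% of the exonic bases of Fosl2 on the opposite strand, where the libraries were made with a strand-preserving kit and the setting for strand in the counting was not given in the sources used here. The summed level of 12 heat shock genes also differed without overlap, at 6914 to 7837 CPM in WT-Tconv and 5807 to 6524 CPM in KO-Tconv Treg, and its part in the result was not tested. Among all genes tested, 11.6% were lower without overlap.

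Fos (ENSMUSG00000021250, chromosome 12, 85520658 to 85524047, plus strand), the founding member and an immediate early gene, lay on the other side. It was at 385, 394 and 402 CPM in WT-Tconv Treg and at 418, 476 and 560 CPM in KO-Tconv Treg. The groups did not overlap, and those with WT Tconv lay within a narrow range. The log2FC of Fos was 0.30 with a standard error of 0.105 and a 95% interval of 0.06 to 0.54. The adjusted p-values were 0.263 in edgeR, with an unadjusted p-value of 0.0207, and 0.106 in DESeq2. Without KO-Tconv Treg replicate 1, the DESeq2 adjusted p-value of Fos was 0.00855, with a log2FC of 0.393, and without replicate 3 of that group the log2FC was the smallest of all alternatives, 0.183. The unadjusted edgeR p-value of Fos was above 0.05 without WT-Tconv Treg replicate 1 (0.0566) and without KO-Tconv Treg replicate 3 (0.0617).

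The ratio of Fosl2 to Fos counts does not depend on the scaling of the libraries. It was 0.422, 0.447 and 0.47 in WT-Tconv Treg and 0.277, 0.209 and 0.118 in KO-Tconv Treg. Both genes separated the groups, in opposite directions, so their ratio separates them by construction. Replicate 3 with HP1α KO Tconv was at once the highest in Fos and the lowest in Fosl2.

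Fosb (ENSMUSG00000003545, chromosome 7, 19036621 to 19043976, minus strand), an immediate early gene close to Fos in sequence, was at 166, 168 and 195 CPM with WT Tconv and at 169, 175 and 200 CPM with HP1α KO Tconv. The groups overlapped almost fully. Its log2FC was 0.04, with a 95% interval of -0.17 to 0.25 and an edgeR FDR of 0.871. With 1 library left out it ranged from -0.0359 without KO-Tconv Treg replicate 3 to 0.117 without WT-Tconv Treg replicate 3. Fosl1 (ENSMUSG00000024912, chromosome 19, 5497575 to 5505974, plus strand) was rare, at 33, 38 and 75 counts in WT-Tconv and 65, 52 and 54 counts in KO-Tconv Treg, a log2FC of 0.42 with a 95% interval of -0.34 to 1.17 and an edgeR FDR of 0.595. It was 0.738 without WT-Tconv Treg replicate 3 and 0.261 without replicate 1 of that group. The interval of Fosl1 includes 0, and 57.2% of its exonic bases are shared with Ccdc85b on the opposite strand, so that its few counts are uncertain if the counting did not use strand.

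The Jun genes, each with 1 exon in the canonical transcript, varied among the libraries within each group. Junb (ENSMUSG00000052837, chromosome 8, 85701113 to 85705359, minus strand), whose product restrains Jun activity in some settings and pairs with BATF in T cells, was at 454, 535 and 663 CPM with WT Tconv and at 460, 766 and 482 CPM with HP1α KO Tconv. The highest library was replicate 2 with HP1α KO Tconv and the next was replicate 3 with WT Tconv, and the groups overlapped. The log2FC of Junb was 0.05 with a 95% interval of -0.56 to 0.66 and an edgeR FDR of 0.947, and it was -0.225 without KO-Tconv Treg replicate 2 and 0.203 without WT-Tconv Treg replicate 3.

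Jun (ENSMUSG00000052684, chromosome 4, 94937271 to 94940459, minus strand) was at 140, 172 and 209 CPM with WT Tconv and at 174, 244 and 210 CPM with HP1α KO Tconv, again highest in replicate 2 with HP1α KO Tconv. Its log2FC was 0.27 with a 95% interval of -0.17 to 0.70 and an edgeR FDR of 0.543. Jund (ENSMUSG00000071076, chromosome 8, 71151599 to 71153265, plus strand), the Jun gene usually expressed without stimulation, was at 75.1, 79.5 and 84.4 CPM and at 74.9, 101 and 88.7 CPM, a log2FC of 0.15 with a 95% interval of -0.10 to 0.40 and an edgeR FDR of 0.577. Without KO-Tconv Treg replicate 2, the log2FC was 0.146 for Jun and 0.039 for Jund, and without WT-Tconv Treg replicate 3 it was 0.425 and 0.19. The unadjusted edgeR p-value of Jun was 0.183, or 0.0289 without WT-Tconv Treg replicate 3 and 0.0435 with the replicate number as a block. Without KO-Tconv Treg replicate 1, Jund had 0.263 with an unadjusted edgeR p-value of 0.0259, and without WT-Tconv Treg replicate 1, Jun had 0.148. Jun shares 16.6% of its exonic bases with Junos, Junb 7.27% with Prdx2 and Jund 52.6% with Gm11175, each on the opposite strand, and reads of these stretches cannot be told apart if the counting did not use strand.

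Batf (ENSMUSG00000034266, chromosome 12, 85733423 to 85755861, plus strand) was at 136, 127 and 124 CPM with WT Tconv and at 120, 166 and 114 CPM with HP1α KO Tconv. Replicate 2 with HP1α KO Tconv was above all libraries with WT Tconv, and the other 2 were below them. The log2FC of Batf was 0.04 with a 95% interval of -0.29 to 0.38 and an edgeR FDR of 0.913, and it was -0.145 without KO-Tconv Treg replicate 2 and 0.0154 without WT-Tconv Treg replicate 3. Fos and Batf lie 209 kb apart on chromosome 12, with 1 protein-coding gene between them, and their log2FCs were 0.30 and 0.04.

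Atf3 (ENSMUSG00000026628, chromosome 1, 190902493 to 190950241, minus strand), a factor induced by cell stress, was at 34.7, 33.7 and 63.3 CPM with WT Tconv and at 29.5, 44.4 and 20.2 CPM with HP1α KO Tconv. The groups overlapped, and the highest library was replicate 3 with WT Tconv, the one with the most red cell and neutrophil RNA. The log2FC of Atf3 was -0.48 with a 95% interval of -1.55 to 0.58 and an edgeR FDR of 0.641, and it was -0.12 without that library and -0.82 without KO-Tconv Treg replicate 2. Batf3 (ENSMUSG00000026630, chromosome 1, 190830044 to 190841142, plus strand), which lies 61.4 kb from Atf3, was counted 5, 6 and 0 times in WT-Tconv and 8, 0 and 2 times in KO-Tconv Treg and was not tested. The 2 libraries at 0 allow levels of up to 0.0256 and 0.03 CPM (a floor of 3 counts, for counting error only). Of 5 dendritic cell markers, Zbtb46 (7.01 to 20.2 CPM), Xcr1 (0.407 to 1.24 CPM) and Itgax (0.155 to 2.40 CPM) were detected in all 6 libraries, and Clec9a and Siglech were at 0 in 2 libraries each, with at most 0.12 and 0.0728 CPM.

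**Figure D3:**
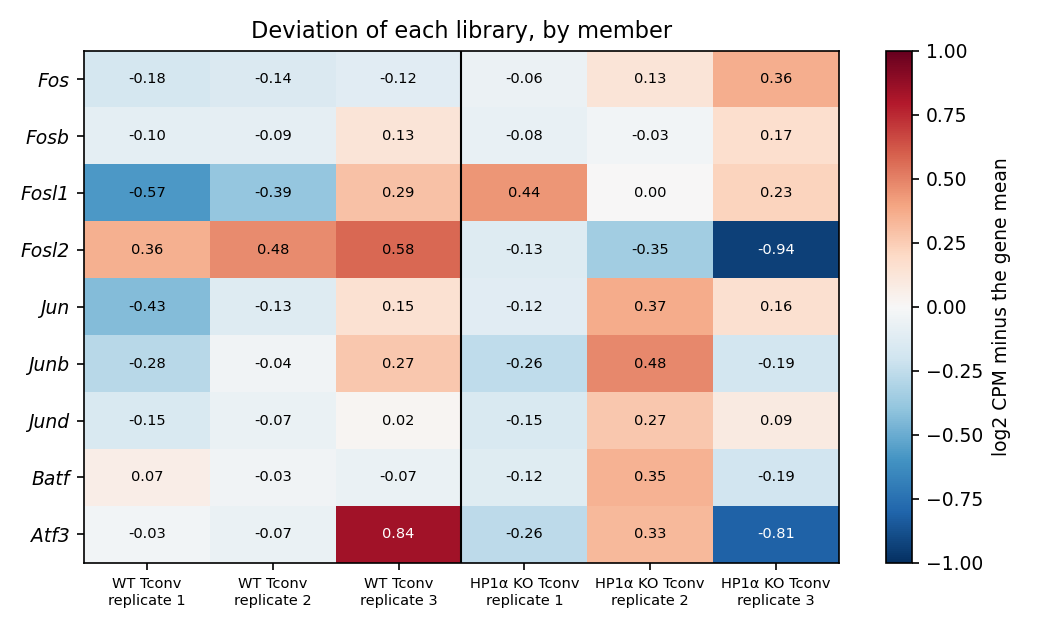
Deviation of each library from the mean of the gene over 6 libraries, in log2 CPM, for the 9 tested members. Fosl2 is above its mean in the 3 libraries with WT Tconv and below it in the 3 with HP1α KO Tconv, whereas Jun, Junb, Jund and Batf are highest in replicate 2 with HP1α KO Tconv.

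Across the 9 tested members, 2 (Fosl2 and Fos) had an unadjusted p-value under 0.05 in edgeR, against 14.5% of all genes tested (7.52% lower and 6.98% higher), and the groups did not overlap for the same 2, against 23% of all genes tested. These counts were near those of all genes, and 1 in either direction. The log2FCs of the members ranged from -0.91 to 0.42 with a median of 0.05, 7 of them above 0 and 2 below, beside a median of -0.01 over all genes. That median of the members was 0.19 without WT-Tconv Treg replicate 3 or KO-Tconv Treg replicate 1, 0.14 without KO-Tconv Treg replicate 3 and 0.10 without WT-Tconv Treg replicate 1. Without KO-Tconv Treg replicate 2, 5 members were above 0 and 4 below. Those counts were 6 and 3 without WT-Tconv Treg replicate 1 or KO-Tconv Treg replicate 3. The spread between replicates, taken as the within-group SD of log2 CPM, lay between 0.128 for Fosb and 0.541 for Atf3. Atf3 was the sole member above the 75th percentile of all genes (84.6), which by construction 25% of genes exceed, Fosl2 was at percentile 68.2 and Fos at percentile 41.8.

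**Figure D4:**
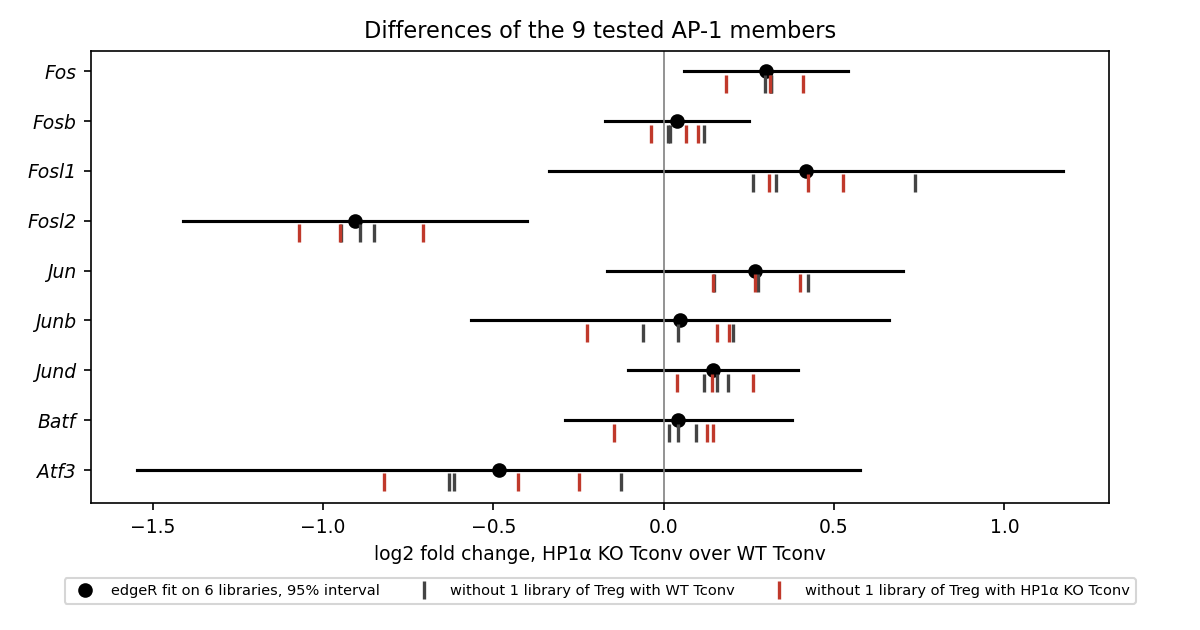
Log2 fold change of each tested member (HP1α KO Tconv over WT Tconv) from edgeR with its 95% interval, and below it the values with 1 library left out (grey for a library with WT Tconv, red for one with HP1α KO Tconv). The interval of Fosl2 runs from -1.41 to -0.40 and that of Fos from 0.06 to 0.54, and those of the other 7 members include 0.

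Over the 6 libraries, the members nearest to each other in pattern were Jun and Jund. The root mean square difference of centred log2 CPM was 0.138 between them, 0.14 between Fosb and Jund, 0.147 between Fos and Jund, 0.149 between Fos and Fosb, 0.154 between Jund and Batf and 0.182 between Jun and Junb, against 0.548 to 0.763 between Fosl2 and each other member except Atf3 (0.41). Among the 13248 genes compared, which averaged 100 counts or more, those nearest to Fos were Polrmt, the mitochondrial RNA polymerase, at 0.0312, Det1, a part of a ubiquitin ligase that targets Jun, at 0.0325, and Ube2d-ps at 0.042. Those nearest to Jun were 1110028F11Rik, Gm16044 and Gm17228, at 0.065 to 0.0733, and those nearest to Batf were Gm29093, Jag2 and Lgals4, at 0.0369 to 0.0428. The same measure was applied to Fosl2 after its values were seen, and gave Gm48838 at 0.0558, Gramd3 at 0.0908 and Nr4a3, an orphan nuclear receptor induced by T cell receptor signalling, at 0.0947. These likenesses describe 6 libraries and carry no test.

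Genes that act around AP-1 were then examined in lists. The lists were chosen with earlier results of these data known. Their counts, given beside the shares of all genes, are therefore descriptions and not independent support. Of 28 immediate early genes that are induced beside Fos and Jun, 20 were lower and 8 higher with HP1α KO Tconv, with a median log2FC of -0.20 beside -0.01 over all genes. Unadjusted edgeR p-values below 0.05 were found for 10 of them, all lower, against 7.52% of all genes tested in that direction, and 0 had an adjusted p-value under 0.05 in edgeR and 3, all lower, in DESeq2 (3.03% of all genes with an adjusted p-value). Nr4a3 was at 119, 116 and 143 CPM with WT Tconv and at 82.7, 74.2 and 54.1 CPM with HP1α KO Tconv, a log2FC of -0.84 with FDRs of 0.209 in edgeR and 3.18e-05 in DESeq2. Klf4, a factor of quiescence, was at 37.8 CPM ± 8.02 and 25.9 CPM ± 2.11 (SD, n = 3), with FDRs of 0.22 and 0.0149, and its log2FC of -0.54 was -0.36 without WT-Tconv Treg replicate 3. The genes of this list with the smallest p-values in the direction of Fos were Myc and Zfp36, with log2FCs of 0.26 and 0.13 and unadjusted edgeR p-values of 0.113 and 0.189, and their log2FCs were 0.0867 and 0.037 without KO-Tconv Treg replicate 3. Without KO-Tconv Treg replicate 2 they were 0.382 and 0.186, with unadjusted edgeR p-values of 0.0146 and 0.0471. In that fit 24 of the 28 genes were lower and 4 higher, with 12 and 2 of them at an unadjusted p-value under 0.05. Without WT-Tconv Treg replicate 3, the count of 10 was 4 and the median -0.12, without replicate 2 of the same group the count was 6, and without KO-Tconv Treg replicate 3 the median was -0.10.

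Of 27 regulators upstream of AP-1, among them the kinases that induce or phosphorylate it and the ligases that degrade it, 5 were higher and 3 lower with an unadjusted p-value under 0.05 in edgeR (6.98 and 7.52% of all genes tested), and the median log2FC was 0.00. The count of 5 was 2 without WT-Tconv Treg replicate 1 or KO-Tconv Treg replicate 3 and 3 without KO-Tconv Treg replicate 2, and the count of 3 was 2 without any one of WT-Tconv Treg replicates 1 and 2 and KO-Tconv Treg replicate 3. DESeq2 called 1 in either direction, against 4.35% of all genes with an adjusted p-value. Srf, which encodes the serum response factor that drives Fos transcription, was at 41.8, 42.5 and 42.4 CPM with WT Tconv and at 51.4, 53.2 and 53.5 CPM with HP1α KO Tconv. The groups were far apart relative to their spread, with a log2FC of 0.32, a standard error of 0.0613 and FDRs of 0.209 in edgeR and 0.0148 in DESeq2. The kinase gene Rps6ka1 was at 201 CPM ± 8.21 and 248 CPM ± 30.4 (SD, n = 3), with a log2FC of 0.30. That log2FC was 0.396 without KO-Tconv Treg replicate 2 and 0.224 without replicate 3 of that group. Lower were Mef2d, a factor that binds the Jun promoter, with a log2FC of -0.40 and FDRs of 0.209 in edgeR and 0.0239 in DESeq2, and Mapk8, which encodes the Jun kinase JNK1, with -0.32 and 0.219 in edgeR and 0.0649 in DESeq2. Without KO-Tconv Treg replicate 2, the log2FC of Mef2d was -0.312.

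Of 23 other bZIP genes tested, which can pair with AP-1 proteins or compete for their sites, 18 were lower and 5 higher, with a median of -0.23. Unadjusted edgeR p-values below 0.05 were found for 5, all lower (7.52% of all genes tested), and DESeq2 called 2, also lower (3.03% of all genes with an adjusted p-value). Atf1 was at 43.2 CPM ± 2.29 and 34.6 CPM ± 0.77 (SD, n = 3), a log2FC of -0.32 with FDRs of 0.209 in edgeR and 0.0266 in DESeq2, and Mafg, a small Maf factor, had -0.33 with 0.246 and 0.0928. Without WT-Tconv Treg replicate 3, Mafg had -0.238 with an unadjusted edgeR p-value of 0.0531. The higher ones with the smallest p-values, Nfe2l1 and Atf7, had log2FCs of 0.08 and 0.09 with unadjusted p-values of 0.307 and 0.389 in edgeR. Without KO-Tconv Treg replicate 2 their log2FCs were 0.144 and 0.169, with unadjusted edgeR p-values of 0.0421 and 0.0708. Nfe2l1 was then the 1 higher gene of this list under 0.05. Without replicate 3 of that group, the log2FCs of Nfe2l1 and Atf7 were 0.0278 and -0.00256. Without WT-Tconv Treg replicate 3, 2 of the 23, both lower, had an unadjusted p-value under 0.05 and the median was -0.09. That count was 3 without WT-Tconv Treg replicate 2 or either of KO-Tconv Treg replicates 1 and 3, and without the last of these the median was -0.13.

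Among 9 factors of other families that bind composite sites with AP-1, 1 was higher and 1 lower with an unadjusted p-value under 0.05 in edgeR (6.98 and 7.52% of all genes tested), and the median log2FC was -0.13, or -0.02 without KO-Tconv Treg replicate 2 and -0.08 without WT-Tconv Treg replicate 2. Irf8 was at 36.0 CPM ± 4.60 and 46.8 CPM ± 7.54 (SD, n = 3), a log2FC of 0.38 with an edgeR FDR of 0.281. Runx3 had -0.32 with 0.295 and Runx1 -0.13 with 0.492. Without KO-Tconv Treg replicate 2, the log2FC was 0.246 for Irf8, with an unadjusted edgeR p-value of 0.0677, -0.184 for Runx3 and -0.0749 for Runx1. The count of 1 lower gene, Runx3, was 0 without any one of the 3 WT-Tconv Treg libraries, and that of 1 higher gene, Irf8, was 0 without WT-Tconv Treg replicate 1. Foxp3, the defining factor of Treg, was at 210 CPM ± 10.9 and 211 CPM ± 51.1, with KO-Tconv Treg replicate 2 the lowest library at 154 CPM. Its log2FC was 0.00, or 0.189 without that library (unadjusted edgeR p-value 0.0292) and -0.14 without KO-Tconv Treg replicate 3. Without KO-Tconv Treg replicate 2, Foxp3 and not Irf8 was thus the 1 higher gene of this list under 0.05. A further list held 18 T cell genes chosen for a link to AP-1 or BATF, whose dependence on them in these Treg was not measured. Of these, 14 were lower and 4 higher, with a median of -0.16. Unadjusted edgeR p-values below 0.05 were found for 5 lower genes and 1 higher gene (7.52 and 6.98% of all genes tested). Il10 and Ctla4 were the lower ones with the smallest p-values, at log2FCs of -0.52 and -0.38 with edgeR FDRs of 0.246 and 0.232. Pdcd1, which encodes the checkpoint receptor PD-1, was at 89.3 CPM ± 9.28 and 114 CPM ± 21.0 (SD, n = 3), with a log2FC of 0.35 and an edgeR FDR of 0.319, and Klrg1 had 0.10 with 0.68. Without KO-Tconv Treg replicate 2, Pdcd1 had 0.205 with an unadjusted edgeR p-value of 0.1 and Klrg1 had 0.156, and without WT-Tconv Treg replicate 3 they had 0.282 and 0.0207. The count of 1 higher gene, Pdcd1, was 0 without any one of WT-Tconv Treg replicates 2 and 3 and KO-Tconv Treg replicates 1 and 2. Without WT-Tconv Treg replicate 2, the count of 5 lower genes was 1, and without replicate 1 of the same group it was 3. DESeq2 called 3 of the 18, all lower, and 0 of the 9 composite-site partners, against 4.35% of all genes with an adjusted p-value (3.03% lower).

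**Figure D5:**
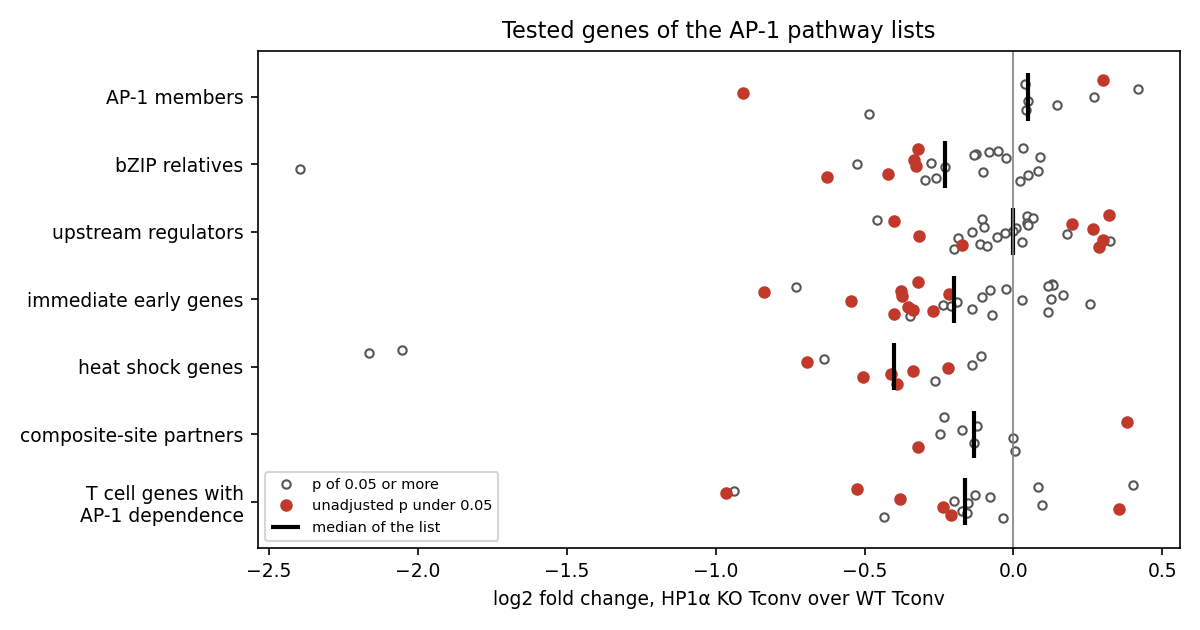
Log2 fold change (HP1α KO Tconv over WT Tconv) of each tested gene of the AP-1 members and of 6 lists around them, filled in red where the unadjusted edgeR p-value is under 0.05, with a bar for the median of each list. The medians of the heat shock (-0.40), bZIP (-0.23), immediate early (-0.20), T cell (-0.16) and composite-site partner (-0.13) lists lie below 0, that of the upstream regulators is 0.00, and that of the AP-1 members is 0.05. The lists were chosen with earlier results of these data known. The dependence of the T cell list on AP-1 was not measured in these Treg.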

How the data were processed

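Total RNA of sorted Treg was sequenced in 6 libraries, 3 per group. Reads had been trimmed, aligned to GRCm39 with STAR and quantified per gene with Salmon, per the labels and the methods of the study, and the authors deposited estimated counts per gene, not normalized and already whole. All 6 columns were mapped to samples by title. Genes were tested with edgeR 4.0.16 (glmQLFit with robust = TRUE, glmQLFTest, TMM, filterByExpr) in R 4.3.3 over 18321 genes, with Benjamini-Hochberg adjustment over all of them. The standard error was taken as |log2FC| divided by the root of the F statistic. Log2 CPM used a prior count of 2. DESeq2 1.42.0 (independent filtering at 0.05), limma-voom (limma 3.58.1), other scalings, filters, a replicate block and leaving out each library were alternatives, and DESeq2 without each library was added after the data were seen. On simulated counts, drawn once with known changes larger than those of the members, edgeR, limma-voom and, most of all, DESeq2 made more false calls than the nominal rate. A single draw in that setting does not rank the tools for these data. Named were the members, from each list the 2 higher and 2 lower genes with the smallest p-value, and the 3 genes most like Fos, Jun and Batf. Members and lists were chosen with earlier results of these data known. Positions, lengths and sequences came from GENCODE vM39 on GRCm39, which matched 28854 identifiers. No protein sequence was used.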

Additional observations from a re-analysis of the deposited data

How the results depend on the processing

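No tested member had an adjusted p-value under 0.05 in edgeR or limma-voom under any alternative, and DESeq2 gave 1 (Fosl2). Across the fits that each left out 1 library, that count ranged from 0 in edgeR to 2 in DESeq2, the count of members with an unadjusted p-value under 0.05 from 1 to 4 against 2, the count of members whose groups do not overlap from 2 to 5 against 2, and the count above the 75th percentile of spread from 1 to 3 against 1. The extremes of 4 and of 2 came from DESeq2 without KO-Tconv Treg replicate 1, and that of 5 from the fit without WT-Tconv Treg replicate 3. Groups of 2 and 3 libraries fail to overlap more readily than groups of 3. Fos, Fosl1, Fosl2, Jun, Jund and Atf3 kept their direction in all 22 alternatives. With 1 library left out, log2 fold changes (log2FC) from edgeR ranged from -0.0359 to 0.117 for Fosb, from -0.225 to 0.203 for Junb and from -0.145 to 0.144 for Batf. DESeq2 gave -0.0351 for Fosb without KO-Tconv Treg replicate 3 and -0.00338 without WT-Tconv Treg replicate 1, -0.231 for Junb without KO-Tconv Treg replicate 2 and -0.0762 without WT-Tconv Treg replicate 1, and -0.15 for Batf without KO-Tconv Treg replicate 2. The cause of these changes of sign was not tested. Without division by length, the share of the pool was 31.8% for Junb with WT Tconv, and 10.2 and 5.34% for Fosl2 with WT and HP1α KO Tconv. With the length of all exons, chosen after the data were seen, that of Fosl2 with WT Tconv was 2.59%. Same-numbered libraries of the groups had correlations of deviations of -0.042, 0.182 and 0.117, so the numbers were not taken to pair them. With the replicate number as a block, 0 members had an adjusted p-value under 0.05. An unadjusted one was found for 3 members (Fosl2, Fos and Jun), beside 2080 of the 18321 genes tested. Fosl2 then had a log2FC of -0.941 with an edgeR FDR of 0.406. Counts were lowest for Fosl1 (317 in all) and Batf3 (21), the latter too few to be tested.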

Other observations

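Heat shock genes, a group of chaperones that cells induce under stress, were lower with HP1α KO Tconv for 12 of 12 genes, with a median log2FC of -0.40. Unadjusted edgeR p-values under 0.05 were found for 6 of them, against 7.52% of all genes tested in that direction. An adjusted p-value under 0.05 was found for 0 in edgeR and 2 in DESeq2 (3.03% lower among all genes with an adjusted p-value). This list, too, was chosen with earlier results of these data known. The summed level of the 12 genes was 6914 to 7837 CPM with WT Tconv and 5807 to 6524 CPM with HP1α KO Tconv, without overlap of the groups. Taken singly, 5 of the 12 were lower without overlap, as were 11.6% of all genes tested. Dnaja1, a co-chaperone, was at 474 CPM ± 17.6 and 333.5 CPM ± 19.1 (SD, n = 3) with FDRs of 0.209 in edgeR and 1.52e-05 in DESeq2, and Hsph1 had a log2FC of -0.69 with 0.209 and 0.000276. The log2FC of Hsph1 was -0.522 without WT-Tconv Treg replicate 3. Without WT-Tconv Treg replicate 3, 12 of 12 genes were still lower, and 3 had an unadjusted edgeR p-value under 0.05. That count was 4 without any one of WT-Tconv Treg replicates 1 and 2 and KO-Tconv Treg replicates 1 and 3, and 9 without KO-Tconv Treg replicate 2.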
